A study of Mus musculus with 4 samples.

Results

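Circulating mononuclear cells of SM/J mice were compared between 20 and 12 months of age. The cells chosen were those of the SM/J matrices at both ages with at least 500 gene UMIs (counted transcript molecules), no fewer than 200 genes detected and a mitochondrial share of UMIs up to 10%, which left 5138 of the 11721 cells kept in the whole series: 2428 at 12 months and 2710 at 20 months. SM/J is an inbred mouse strain, and the labels name no treatment, allele or sex. The series also profiled BL/6 mice at the same ages, with both ages of a strain run together in 1 multiplexed 10x sample. Heart blood was drawn, its mononuclear fraction was isolated on a density gradient, and platelets and red cells were reduced by a slow spin and a lysis step. Each age of SM/J carried 3 tag oligos. Cells led by 1 tag form an aliquot (aliquots 1, 2 and 3 of each age), a neutral word used because the sources do not tell whether tags stand for animals, pools or repeats. The ages of SM/J are tagged parts of 1 10x sample and no tag is known to be a replicate, so no test was made, and intervals cover counting error only.

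Blood mononuclear cells hold lymphocytes (B, T and NK cells) and monocytes. Classical monocytes, marked by Ccr2 and Ly6c2, enter inflamed tissue, whereas nonclassical monocytes, marked by Treml4, Ace and Nr4a1, patrol the vessel wall. Follicular B cells carry IgD and the IgE receptor CD23 (Fcer2a), whereas B-1 cells, most of them resident in the peritoneal and pleural cavities, carry much IgM and little of either. Macrophages of the same cavities express Prg4, Alox15, Timd4, C1q genes and the transcription factor Gata6. Type I interferon, released on infection, induces antiviral genes such as Isg15, Irf7 and Ifih1 in most cells.

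The kept SM/J cells held 13960686 UMIs at 12 months and 29930676 at 20 months, with a median of 4767 and 8922.5 UMIs and of 1804.5 and 2603 genes per cell. The mitochondrial limit removed 3.45% and 5.94% of deposited cells. The SM/J matrices shared 0 barcodes. Tag purity differed: a median of 28.0% of the SM/J tag UMIs of a 12-month cell came from oligos of the other age, against 7.04% at 20 months, and 474 of the 12-month cells and 0 of the 20-month cells were over 40%. Lineage shares and several gene ratios are also given without such cells. Erythroid markers summed to 4002 CPM (a gene's UMIs scaled to the same total in every sum) at 12 months (aliquots 2706 to 5499) and 1394 CPM at 20 months (339 to 2308). The 10 neutrophil markers summed to 195 CPM (27.3 to 498) and 215 CPM (91.0 to 358).

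Lineages were named by cluster from marker transcripts. In the named lineages a UMI of Cd79a, part of the B cell receptor, was found in 98.9% of B cell-like cells (median 6862 UMIs) and 12.9% of other SM/J cells (median 6115 UMIs). Cd3e, a chain of the T cell receptor complex, was seen in 85.2% of T cell-like cells and 0.954% of the others. Treml4 was seen in 90.2% of nonclassical monocyte-like cells against 3.21%, and Ccr2 in 96.7% of classical monocyte-like cells against 9.54%. In the cavity macrophage-like cells, a single cluster (cluster 1), Prg4 was seen in 99.8%, Timd4 in 96.8% and Gata6 in 53.6%, against 15.1%, 1.93% and 0.257% of other SM/J cells. These macrophages are not a type of blood cell, and their source was not tested.

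The mix of lineages differed between the ages. Cavity macrophage-like cells were 1.46% of leukocytes at 12 months and 14.9% at 20 months, a change of 13.4 percentage points. Aliquots 1, 2 and 3 held 1.35%, 2.18% and 0.75% at 12 months and 15.6%, 15.6% and 13.4% at 20 months. The aliquots of the ages did not overlap. B cell-like cells were 53.6% and 60.1% (change 6.54 points, 95% interval 3.81 to 9.26), with 54.8%, 53.3% and 52.6% in the 12-month aliquots and 61.9%, 59.0% and 60.0% in the 20-month aliquots. Nonclassical monocyte-like cells went from 17.1% to 6.42% (-10.6 points, -12.4 to -8.88), with 16.3%, 18.1% and 17.1% against 6.03%, 6.71% and 6.43%. T cell-like cells went from 15.1% to 8.55% (-6.50 points, -8.30 to -4.73), with 12.8%, 14.5% and 17.2% against 8.26%, 8.81% and 8.51%. For these lineages too every 20-month aliquot lay on the same side of every 12-month aliquot. Classical monocyte-like cells were 4.77% and 3.70%, with aliquots of 3.76% to 5.52% and 2.36% to 5.02% that overlapped, and without the cells over 20% other-age tag UMIs their change was -10.5 points. Plasma cell-like cells, which secrete antibody, numbered 4 and 26, and NK cell-like cells were 2.51% and 1.94% of leukocytes.

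**Figure D1:**
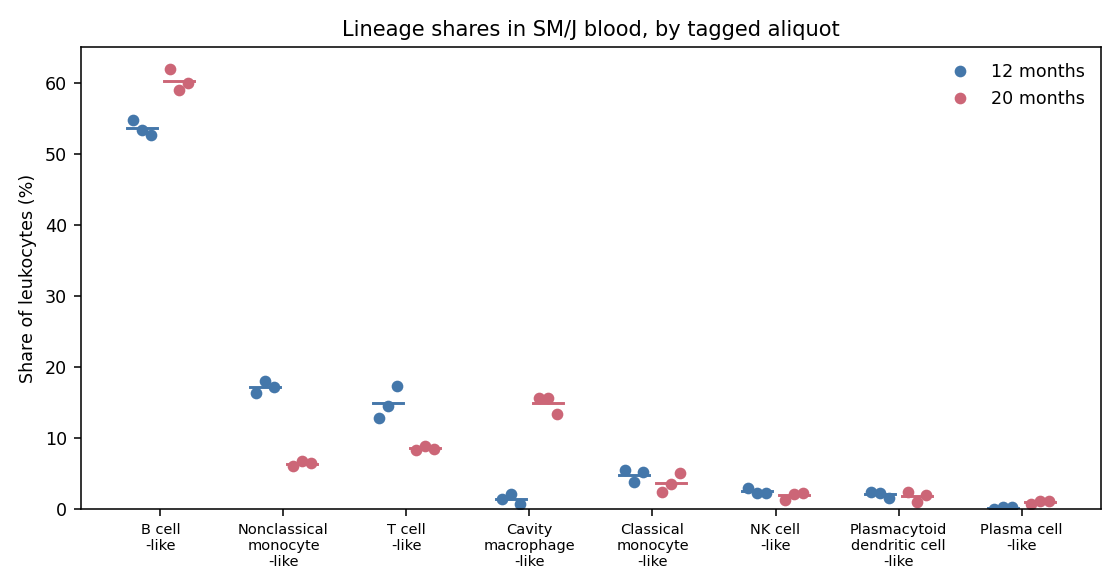
Share of leukocytes (%, vertical axis) of 8 lineages in each tagged aliquot of SM/J blood at 12 months (blue) and 20 months (red); each point is 1 aliquot and the bar is the mean of the 3. Cavity macrophage-like cells lie between 0.75% and 2.18% at 12 months and between 13.4% and 15.6% at 20 months, and nonclassical monocyte-like cells move the other way.

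The B cell-like gain came from clusters held almost wholly by 1 age. Cluster 24, led by Zcwpw1, had 15 cells at 12 months and 847 at 20 months, which is 31.6% of leukocytes at 20 months. Cluster 18, led by the cell division genes Pclaf, Mki67 and Top2a, had 1 and 69 cells. The other main B clusters shrank, cluster 19 from 570 to 403 cells and cluster 13 from 558 to 248. When SM/J cells were clustered alone, 99.2% of the cells of cluster 24, 100% of cluster 18 and 51.9% of cluster 19 were named plasma cell-like, and that class was 18.8% of leukocytes at 12 months. The B cell-like share then changed by -13.4 points and the plasma cell-like share by 19.9 points, whereas B and plasma cell-like cells together went from 55.2% to 61.7%. Cells of cluster 24 carried Cd79a in 99.8% and Ms4a1, the gene of the B cell surface protein CD20, in 98.1%. Of the plasma cell genes, Sdc1, a surface proteoglycan, stood at 0.390 CPM in cluster 24, 0.826 in cluster 19 and 2.30 in cluster 13. The transcription factor Prdm1 stood at 67.6, 24.2 and 6.51 CPM in the same order and Xbp1 at 83.5, 21.5 and 19.1 CPM. The chaperone Mzb1 stood at 1372, 635 and 314 CPM, and among these clusters each was highest in cluster 24. In cluster 18 Prdm1 stood at 45.7, Xbp1 at 143 and Mzb1 at 1260 CPM, so Xbp1 was higher there. Jchain, the joining chain of secreted antibody, stood at 137, 325 and 16.1 CPM in clusters 24, 19 and 13, highest of these in cluster 19.

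The tag limit bore on these shares. Leaving out cells with over 40% other-age tag UMIs removed 38.6% of the T cell-like and 22.3% of the B cell-like cells at 12 months and gave changes of -2.89 points for T and -14.2 points for nonclassical monocyte-like cells. A limit of 20% removed 96.9% of the T cell-like, 87.8% of the B cell-like and 17.9% of the nonclassical monocyte-like cells at 12 months. It turned the T cell-like change to 6.72 points and took the B cell-like change to 37.9 points. Both limits were chosen after seeing the data. A mitochondrial limit of 5% left a B cell-like change of 0.839 points.

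Summed over all cells, many transcripts differed. A gene counts as past 2-fold here when log2((CPM at 20 months + 1)/(CPM at 12 months + 1)) is at least 1 or at most -1, among 8085 genes with at least 100 UMIs over both ages and a mean of at least 10 CPM. At 20 months 375 genes (4.64%) were higher and 438 (5.42%) lower, and for 374 (4.63%) and 435 (5.38%) of them the aliquots of the ages did not overlap. In BL/6, 136 of 8134 genes (1.67%) were higher and 109 (1.34%) lower. Without the cells over 20% other-age tag UMIs, 965 genes were lower. Thinning every cell to 1000 UMIs gave 167 lower genes and the mean of CPM per cell gave 140, against 438. The median log2 ratio over all SM/J genes was -0.11, and TMM scaling, which shifts it by 0.163, gave 469 higher and 307 lower genes.

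**Figure D2:**
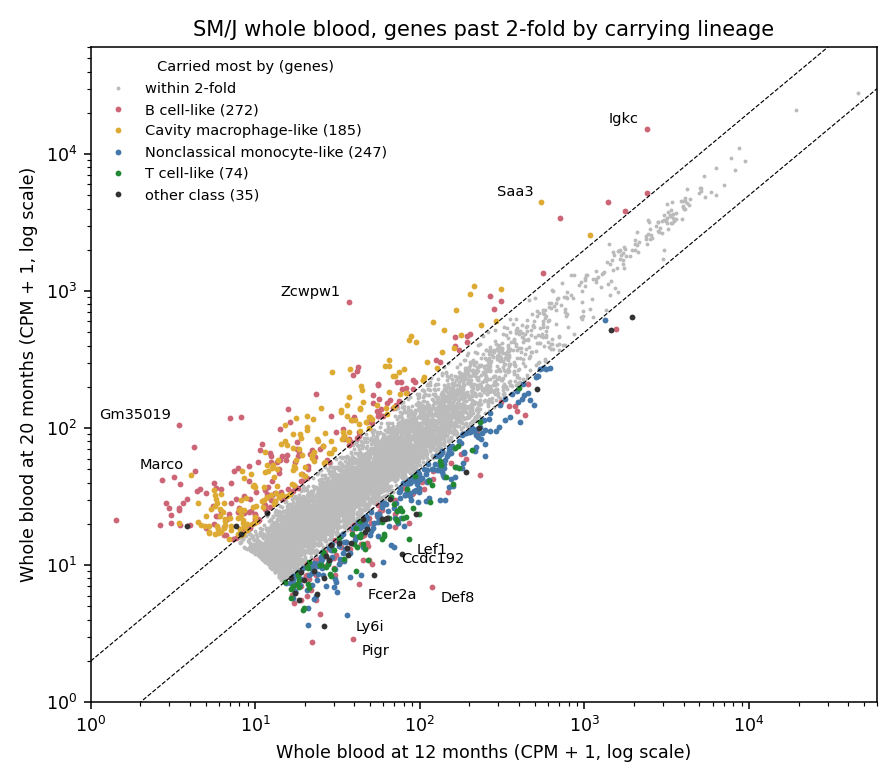
Whole-blood level of each of 8085 tested genes at 12 months (horizontal) and 20 months (vertical), in CPM + 1 on log axes; dashed lines mark 2-fold and colour marks the lineage that carried most of the change. Higher genes divide between B cell-like and cavity macrophage-like cells, and lower genes are mostly carried by nonclassical monocyte-like cells.

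Because the classes sum to whole blood, each gene's change in CPM divides exactly among them, and the class with the largest part in the direction of change is called its carrier. Of the 375 higher genes, 186 (49.6%) were carried by B cell-like and 185 (49.3%) by cavity macrophage-like cells. Of the 438 lower genes, 247 (56.4%) were carried by nonclassical monocyte-like, 86 by B cell-like and 74 by T cell-like cells. The change also divides into a part from the classes' shares of UMIs and a part from levels within classes. Over the 813 genes past 2-fold either way (10.1% of those tested) the part from shares had a median of 60.5%. This share part had a median of 41.2% for the higher genes and 71.6% for the lower genes. When SM/J cells were clustered alone, B cell-like cells carried 7.26% of the genes past 2-fold, against 33.5% here, so the carrier depended on how clusters were named. Over clusters in place of classes the median share parts of the higher and lower genes were 81.5% and 86.0%. Without the 5 clusters with over 90% of their SM/J cells at 1 age (1, 6, 18, 20 and 24), 56 of 8008 genes (0.699%) were higher and 34 (0.425%) lower, among them 37 and 27 of those above. Without clusters 1 and 24 alone, an alternative added after seeing the data, 163 of 8076 genes (2.02%) were higher and 71 (0.879%) lower.

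**Figure D3:**
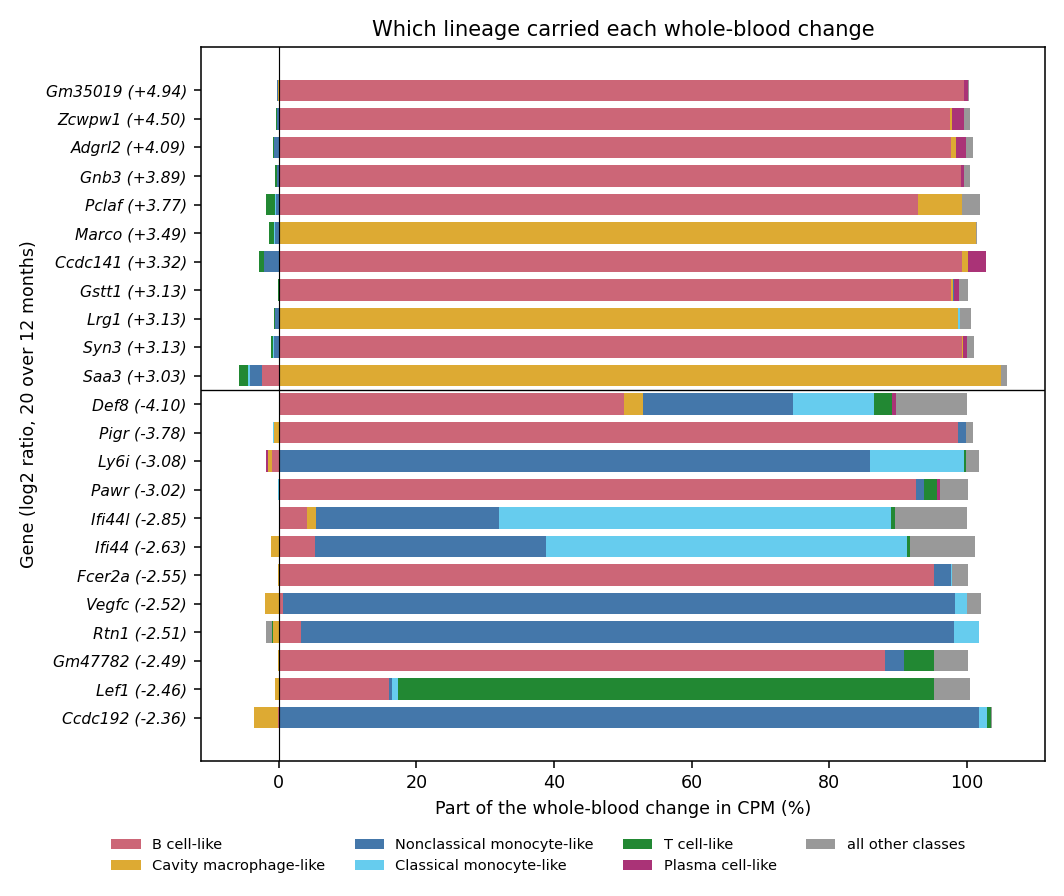
Part of each gene's whole-blood change in CPM (%, horizontal axis) that each lineage carried, for 11 of the 12 genes with the highest and the 12 with the lowest log2 ratio (number beside each name, 20 over 12 months). Most bars are of a single lineage, whereas Def8 (50.2% B cell-like) and Ifi44 (52.4% classical monocyte-like) are spread over several.

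Among the genes carried by B cell-like cells, Zcwpw1 (chr5:137787157-137822621), which encodes a reader of histone methylation known from meiosis, stood at 28.1, 48.3 and 30.9 CPM in the 12-month aliquots and 857, 816 and 830 CPM in the 20-month aliquots. Every 20-month aliquot was far above every 12-month aliquot, and the log2 ratio was 4.50. Gm35019 (chr15:37893003-37907976), a long noncoding RNA, stood at 2.78, 3.50 and 1.07 CPM against 104, 111 and 98.1 CPM (log2 ratio 4.94). B cell-like cells carried 97.5% of the change in Zcwpw1 and 99.6% of that in Gm35019. These genes lead cluster 24, so they describe that cluster again. Adgrl2, an adhesion G protein-coupled receptor (log2 ratio 4.09), and Gnb3, a G protein beta subunit (3.89), had the same carrier. Within B cell-like cells 174 of 4932 genes (3.53%) were higher and 181 (3.67%) lower, but cluster 24 held 52.6% of the class at 20 months and clusters 19 and 13 held 44.5% and 43.5% at 12 months, so different clusters are compared.

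Several proliferation genes were higher in whole blood. Of the 18 listed, 12 passed the filter on low values, and of these 6 were past 2-fold higher and 0 lower, beside 4.64% and 5.42% of all genes, with B cell-like cells as carrier of all 12. Mki67, Birc5, Stmn1 and Mcm5 stood under 10 CPM at 12 months and passed through their 20-month level alone, so the count leans upward and is given as a description. Pclaf, a partner of the replication clamp, stood at 1.16, 2.88 and 2.56 CPM at 12 months and at 52.5, 37.7 and 39.6 CPM at 20 months (log2 ratio 3.77). Mki67, the cell cycle marker Ki-67, stood at 4.64, 9.05 and 10.2 CPM and at 68.0, 41.6 and 47.9 CPM (2.52). Aliquot 1 was the lowest of its age at 12 months for both genes and the highest at 20 months. Birc5, a division protein, had a log2 ratio of 2.73 and Top2a, a DNA topoisomerase, one of 2.05. These genes lead cluster 18, with 69 cells at 20 months and a median of 27583 UMIs per cell.

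Other gene groups moved less uniformly in whole blood, where 4.64% of all genes were higher and 5.42% lower. Of 14 B-1 cell genes tested, 3 were higher (Zcwpw1, Fgl2 at 2.92 and the checkpoint receptor Ctla4 at 1.91) and 3 lower (Spn at -1.87, Tox at -1.61 and Cd5 at -1.42). Without the cells over 20% other-age tag UMIs, Tox stood at 0.0348. The lower ones were carried by nonclassical monocyte-like or T cell-like cells, and the higher ones by B cell-like cells. S100a6, a calcium-binding protein, stood at 698, 723 and 730 CPM at 12 months and 3460, 3363 and 3448 CPM at 20 months (log2 ratio 2.26). It was 1 of 4 higher genes among the 13 S100 and alarmin genes tested, with Lgals1 (1.501), Vim (1.27) and S100a1 (1.22), and none was lower. B cell-like cells carried S100a6, Lgals1 and Vim, and cavity macrophage-like cells carried S100a1 (88.9%). Of 16 immediate early genes tested, which respond within minutes to stimulation, 4 were higher (Egr1 at 2.63, Egr3 at 2.02, Ier3 at 1.82 and Fosb at 1.08) and 1, Nr4a1 at -1.38, was lower. Nr4a1 was carried by nonclassical monocyte-like, Ier3 by cavity macrophage-like and the others by B cell-like cells. Among 19 tested genes of secretion and protein folding 4 were higher, led by Creld2 (2.02), and 0 lower. Of the 4, Sdf2l1 (1.25) was carried by cavity macrophage-like cells (76.5%).

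Antibody transcripts changed their makeup. Igkc (chr6:70726435-70726754), the constant part of kappa light chains, stood at 1910, 2433 and 2768 CPM at 12 months and 13921, 16079 and 15687 CPM at 20 months (log2 ratio 2.68). Iglc1, a lambda constant part, went the other way, from 1544 to 527 CPM (-1.55), but without the cells over 20% other-age tag UMIs its log2 ratio was 0.12. Ighm, the constant part of IgM, had a log2 ratio of 1.70 and Ighd, that of IgD, one of -2.10. Segments can be confused between similar genes, and the reference is of BL/6 type.

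V segments were left out of the clustering, and most B cell-like cells given one at 20 months lay in cluster 24. A cell was given a V segment when it had at least 3 V UMIs with at least 80% from 1 segment. Of the 847 cells of cluster 24 at 20 months, 276 (32.6%) had a kappa segment, and 4 segments were seen: Igkv17-127 in 118 of them (42.8%), Igkv14-126 in 110 (39.9%), Igkv17-121 in 47 and 1 more in a single cell. In aliquots 1, 2 and 3 Igkv17-127 made up 49.4%, 35.5% and 44.0% and Igkv14-126 31.3%, 44.1% and 43.0%, so both were frequent in each. A heavy segment was called in 91 cells, with Ighv2-5 in 59 (64.8%) and Ighv1-66 in 23 (25.3%). Of the 63 cells with both calls, 44 paired Ighv2-5 with Igkv17-127, 15 paired Ighv1-66 with Igkv17-121 and 4 paired Ighv11-2 with Igkv14-126. The first pair was found in 19, 10 and 15 cells of the 3 aliquots, and the second in 4, 8 and 3. In cluster 18 the 12 cells with both calls held the same 3 pairs, in 4, 6 and 2 cells. The rise of the kappa segments was not confined to clusters 24 and 18. Without the clusters held mostly by 1 age, these among them, Igkv14-126 had a log2 ratio of 4.72 (4.10 in whole blood). Igkv17-121 then stood at 3.15 (3.95) and Igkv17-127 at 2.60 (3.49). Outside clusters 24 and 18, the B cell-like cells at 20 months with a kappa call were 18 of 695 (2.59%), with 10 segments among them, and at 12 months all B cell-like cells gave 21 of 1282 (1.64%), also with 10 segments. The libraries are 3′ libraries, which cover V segments poorly, and the depth of these cells differs (medians 9628 and 4196 UMIs in B cell-like cells at 20 and 12 months).

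Follicular B cell genes were lower. Of 11 tested in whole blood 7 were past 2-fold lower and 0 higher, with a median log2 ratio of -1.36, beside 5.42% of all genes lower and a median of -0.11. Fcer2a (chr8:3680280-3694174), the low-affinity IgE receptor CD23, stood at 36.9, 37.0 and 49.5 CPM at 12 months and 5.98, 5.63 and 7.38 CPM at 20 months (log2 ratio -2.55). It was under 10 CPM at 20 months and passed the filter on low values through its 12-month level. The count of lower genes therefore leans downward and is given as a description. Fcmr, the IgM receptor (-2.34), Ccr7, a receptor for lymph node chemokines (-2.08), and Cr2, complement receptor 2 (-1.78), were also lower. Cxcr5, which guides B cells to follicles, was at 0.09. Within B cell-like cells 6 of 10 tested were lower, beside 3.67% of all genes of that class lower. Cr2, Fcer2a and Ccr7 were under 20 CPM in the class at 20 months and passed its filter through their 12-month level. The count within the class therefore leans downward too. In cluster 24 Fcer2a stood at 1.25 CPM. Pigr (chr1:130826684-130852249), the receptor that carries IgA and IgM across epithelia, stood at 45.2, 38.3 and 33.3 CPM at 12 months and 1.11, 2.18 and 2.23 CPM at 20 months (-3.78), and 98.7% of its change was carried by B cell-like cells.

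Cluster 19, a B cell-like cluster with 570 and 403 cells, was held by both ages, although clustering SM/J alone divided it between B and plasma cell-like names. Within it 65 of 5313 genes (1.22%) were higher and 66 (1.24%) lower at 20 months. Slpi, a secreted protease inhibitor, stood at 29.2, 37.8 and 23.2 CPM at 12 months and 312, 413 and 321 CPM at 20 months (log2 ratio 3.50). Its aliquots did not overlap, and Slpi was within 2-fold in B cluster 13 (-0.31). B clusters 0, 4 and 7, with 17, 11 and 16 cells at 20 months, were not compared. Pigr (-3.69), Iglc1 (-2.85) and Jchain, the joining chain of IgM and IgA (-2.14), were lower in cluster 19. In cluster 13, with 558 and 248 cells, 5 of 3425 genes (0.146%) were higher and 18 (0.526%) lower.

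Cavity macrophage-like cells carried the inflammatory and complement genes that were higher. Saa3 (chr7:46711998-46719615), an acute-phase serum amyloid made by macrophages, stood at 557, 598 and 477 CPM in whole blood at 12 months and 3977, 4840 and 4456 CPM at 20 months (log2 ratio 3.03). Within cavity macrophage-like cells it stood at 1502, 2477 and 1057 CPM in the 10, 18 and 6 cells of the 12-month aliquots and 19585, 22845 and 22674 CPM in the 119, 156 and 123 cells of the 20-month aliquots. Both the number of these cells and their Saa3 level were thus higher in every 20-month aliquot. Marco, a scavenger receptor, stood at 5.34, 3.29 and 0.853 CPM and 31.4, 60.5 and 39.6 CPM in whole blood (log2 ratio 3.49), and without clusters 1 and 24 its log2 ratio was -0.09. Lrg1, a secreted glycoprotein of inflammation, stood at 28.1, 43.0 and 13.4 CPM and 258, 283 and 221 CPM (3.13).

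Of 14 complement genes tested, 7 were past 2-fold higher and 2 lower, beside 4.64% and 5.42% of all genes, and cavity macrophage-like cells carried 11 of the 14. The classical pathway components C4b (log2 ratio 2.84), C1qb (2.35) and C1qc (2.21) and the alternative pathway factor Cfb (2.42) were higher. The lower genes were the complement receptors Itgax (-1.95) and Cr2. Within cavity macrophage-like cells, C1qc stood at 1315 and 1423 CPM and C1qb at 1709 and 2173 CPM and C4b at 719 and 1351 CPM (log2 ratio 0.91), all within 2-fold, whereas Cfb went from 181 to 375 CPM (1.04). All 9 tested markers of the class were higher in whole blood (median 2.22), which restates its share. Of 11 inflammatory monocyte genes 3 were higher, the chemokine Cxcl2 (2.23), the lectin receptor Clec4d (1.92) and the endotoxin receptor Cd14 (1.77), and each was carried by cavity macrophage-like cells. The cytokine Il1b (-1.14) and the chemokine Ccl4 (-1.11) were lower, carried by nonclassical monocyte-like and basophil-like cells.

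Nonclassical monocyte-like cells carried most lower genes, with few genes past 2-fold inside the class. Of the class markers 9 of 10 were lower in whole blood (median -1.89), but at the 12-month levels with the 20-month shares the median was -1.62, and with the shares held it was -0.07. Ccdc192, a coiled-coil gene, stood at 70.5, 71.0 and 63.6 CPM at 12 months and 11.7, 12.6 and 13.05 CPM at 20 months (log2 ratio -2.36), and within the class at 296 and 221 CPM. Rtn1, a reticulon of the endoplasmic reticulum, stood at 49.4, 59.2 and 67.4 CPM and 9.42, 8.08 and 11.1 CPM (-2.51). The aliquots of the ages lay apart for both genes. Ly6i, a Ly6 family surface protein, was lower in whole blood (-3.08) and within the class, at 135, 132 and 127 CPM against 35.8, 29.6 and 54.1 CPM (-1.70). Vegfc, a growth factor of lymphatic vessels, was lower by -2.52 on the log2 scale in whole blood.

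Within nonclassical monocyte-like cells 9 of 5192 genes (0.173%) were higher and 16 (0.308%) lower, and cluster 22 held most of the class at both ages (366 and 156 cells). Fkbp5, a chaperone partner induced by glucocorticoids, stood at 24.8, 24.7 and 21.3 CPM at 12 months and 110, 106 and 169 CPM at 20 months (log2 ratio 2.41). Fosb (1.38), the lectin receptor Clec4e (1.27) and the lipid kinase Dgkz (1.25) were also higher. The haemoglobin genes Hbb-bs (-5.05) and Hba-a1 (-4.45) gave the lowest ratios. Of the 4109 UMIs of Hbb-bs at 12 months, 4029 lay in 5 cells.

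T cell genes were lower in whole blood, and their markers stayed within 2-fold inside T cell-like cells as a class. All 8 tested T cell markers were lower (median -1.76), and with class shares held the median was -0.14. Trac, the constant part of the T cell receptor alpha chain, stood at 39.7, 44.8 and 44.8 CPM at 12 months and 10.9, 15.5 and 13.2 CPM at 20 months (log2 ratio -1.66), and within T cell-like cells at 329 and 352 CPM. Cd8b1, a chain of the CD8 coreceptor, stood at 143 and 92.0 CPM within the class (-0.63) and Trbc1, a beta chain constant part, at 724 and 586 CPM (-0.30). In T cell cluster 8 Trbc1 was past 2-fold lower (-1.68, 683 and 97 UMIs). Lef1 (chr3:131110297-131224357), a transcription factor of naive T cells, stood at 71.0, 86.0 and 93.2 CPM and 12.3, 15.0 and 16.2 CPM in whole blood (-2.46). Within the class it stood at 524, 584 and 504 CPM and 333, 341 and 394 CPM, within 2-fold (-0.59) but without overlap. Of 10 naive T cell genes 7 were lower in whole blood, beside 5.42% of all genes, and T cell-like cells carried 5 of the 10. Bach2 and Ccr7 fell more within B cell-like cells (-2.27 and -2.41) than within T cell-like cells (-0.35 and -0.46). Within T cell-like cells 0 of the 10 were past 2-fold. Of all 3138 genes tested there, 12 (0.382%) were higher and 4 (0.127%) lower.

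The mix of T clusters also differed. Cluster 11, led by Igfbp4 and Lef1, held 160 and 53 cells, cluster 8, led by Gzmm and Cd8b1, 105 and 55, and cluster 10, led by Ikzf2 and Icos, 73 and 95. The genes with the highest ratio within the class were Nebl (2.08), Mmp16 (1.85), Kcnq5 (1.81) and Klhl14 (1.72), and Nebl also leads cluster 10. The lowest were Actn1 (-1.498), Mlycd (-1.37), Tdrp (-1.196) and Rnf213 (-1.05). Of 7 cytotoxic genes tested in whole blood 4 were lower and 0 higher, beside 5.42% of all genes lower. The filter on low values used the mean of both ages, so a gene could pass through its level at the younger age alone. This count can thus lean downward and is given as a description. With cells over 20% other-age tag UMIs left out, Trac had a log2 ratio of 0.57, Trbc2 of 1.204 and the granule gene Nkg7 of 1.21, so the direction of T cell and cytotoxic transcripts in whole blood depended on that limit. In NK cell-like cells, with 60 and 52 cells, 2 of 454 genes (0.441%) were higher and 2 (0.441%) lower. The chromatin protein gene Dek led them (1.44), at 267, 156 and 178 CPM against 289, 855 and 294 CPM, where aliquot 2 at 20 months stood apart.

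Classical monocyte-like cells had lower interferon-response genes at 20 months. Of 12 members of a list of 26 that were tested in these cells, 11 were past 2-fold lower and 0 higher, with a median log2 ratio of -1.57 against 0.00 over all genes of the class, in which 15 of 2886 genes (0.52%) were higher and 40 (1.39%) lower. The 12 members summed to 5800, 5484 and 5376 CPM at 12 months and 1771, 3029 and 1760 CPM at 20 months. Aliquot 2 was the highest at 20 months and still below all 12-month aliquots, and without it the median was -2.18. In nonclassical monocyte-like cells 2 of 8 members were lower (Rtp4 at -2.31 and Trim30a at -1.08; median -0.68), beside 0.308% of all genes of that class lower. Rtp4 stood at 36.1 and 6.49 CPM there and passed the filter on low values through its 12-month level. Members with a level below 0.25 times that of the highest other class were not tested there, and in cluster 22, most of that class, Ifi44 (-1.77), Ifi27l2a (-1.76) and Irf7 (-1.03) were past 2-fold lower too. Whether the lineages differed was not tested. In T cell-like and B cell-like cells 0 of 3 were past 2-fold (medians -0.20 and -0.21).

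**Figure D4:**
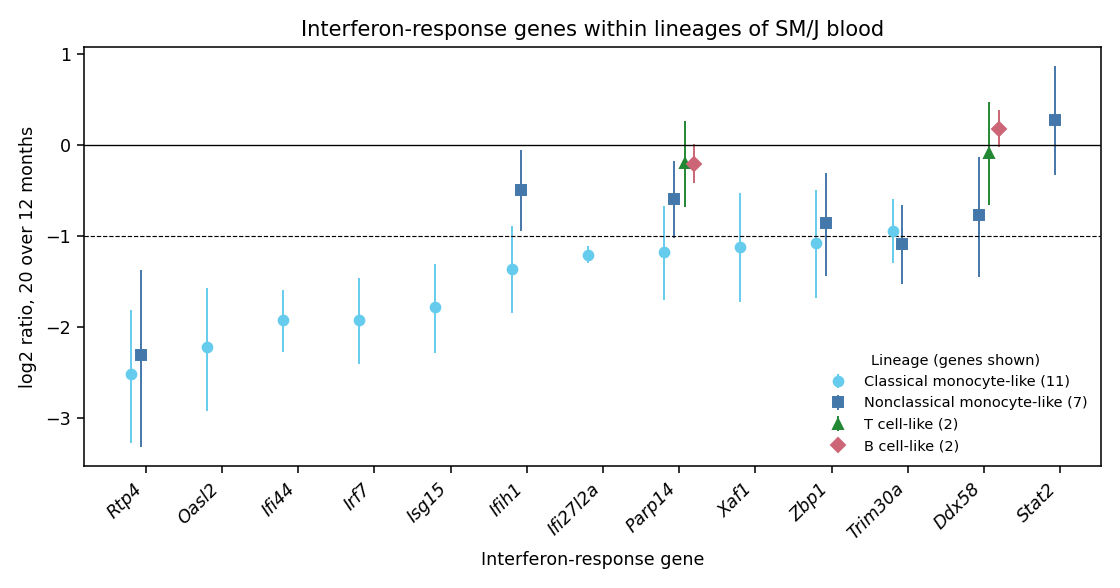
log2 ratio of 20 over 12 months (vertical axis) of interferon-response genes tested within 4 lineages; whiskers are 95% counting intervals and the dashed line marks 2-fold lower. In classical monocyte-like cells 10 of the 11 genes shown lie below the line, from Rtp4 at -2.52 to Zbp1 at -1.08, and Trim30a lies at -0.94.

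The members differ in role. Irf7, the factor that amplifies interferon production, stood at 204, 230 and 223 CPM in the 12-month aliquots of classical monocyte-like cells and 18.4, 112 and 32.04 CPM at 20 months (log2 ratio -1.92). Isg15, a ubiquitin-like modifier, stood at 195, 249 and 152 CPM and 12.3, 105 and 37.4 CPM (-1.78). In both the aliquots of the ages lay apart, and aliquot 2 was the highest at 20 months. Among the sensors and effectors, Ifih1, which senses long double-stranded RNA, was at -1.36, Oasl2 at -2.23, Ifi44 at -1.93 and Rtp4 at -2.52. Ifi27l2a, the most abundant member, stood at 3587 and 1553 CPM (-1.21). Ifi44 and Ifi44l are among the leading genes of cluster 23, which held 111 of the 114 and 94 of the 99 classical monocyte-like cells, so the ages share that cluster.

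Interferon-activated factors bind a response element built of GAAA repeats. The letters GAAA, any 2 bases and GAAA again, searched on both strands in windows of 250 bases before to 50 after the start (RefSeq, GRCm38.p6), occurred in 1079 of 27025 genes (3.99%). Of the 18 list members with a window 11 held it, and of the 11 genes lower in classical monocyte-like cells 6 had a window and 2 held it, Isg15 and Ifih1. The 250 bases before the start of Isg15 (chr4:156200819-156201068, minus strand, 3 overlapping matches) and a 30-base stretch just after the start of Ifih1 (chr2:62646206-62646235, minus strand, 1 match) are shown 5′ to 3′, with capitals marking the matched letters. A match is a description of these letters and not a bound site.
Isg15: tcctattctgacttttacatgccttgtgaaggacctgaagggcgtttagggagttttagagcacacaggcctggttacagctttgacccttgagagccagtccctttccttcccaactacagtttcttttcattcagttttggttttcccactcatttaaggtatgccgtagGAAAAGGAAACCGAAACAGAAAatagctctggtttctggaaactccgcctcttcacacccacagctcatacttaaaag
Ifih1: gagaagagaatcGAAACAGAAAccgatctg

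Outside the interferon list, genes of classical monocyte-like cells moved both ways. Among the lower ones were Def8 (log2 ratio -5.55), Pde7b, a phosphodiesterase (-1.79), and Ly6c2, a marker of the class (-1.42). Among the higher ones, Vcan (chr13:89655309-89743027), a matrix proteoglycan, stood at 83.9, 111 and 67.8 CPM at 12 months and 637, 439 and 606 CPM at 20 months (log2 ratio 2.70). Fkbp5 stood at 12.0, 32.3 and 6.46 CPM and 91.9, 134 and 96.1 CPM (2.76). Both genes had non-overlapping aliquots, as did the chitinase-like gene Chil3 (1.31) and the chemokine receptor Ccr1 (1.85). Vcan and Chil3 are also among the genes that define cluster 23 against the other clusters.

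Def8 (chr8:123442956-123467076), which encodes a regulator of lysosome positioning, had the lowest log2 ratio of the genes named in whole blood and was lower in each of the 7 lineages examined. It stood at 132, 128 and 95.8 CPM in the 12-month aliquots and 5.87, 5.72 and 6.27 CPM in the 20-month aliquots (log2 ratio -4.10), and BL/6 blood stood at 5.16 and 5.73 CPM at 12 and 20 months. Within classes it went from 121.5 to 3.33 CPM in B cell-like, from 219 to 3.69 CPM in classical monocyte-like, from 111 to 5.68 CPM in nonclassical monocyte-like and from 24.3 to 6.00 CPM in T cell-like cells. T cell cluster 8 was apart, with 1 UMI at each age. The single high group was thus SM/J at 12 months. Of 11 genes within 200 kb of Def8, 2 were tested, at -0.09 and -0.13, so the difference was not shared by its tested neighbours. Among the 12-month cells, Def8 stood at 145 CPM in those with at most 20% other-age tag UMIs, 110 CPM in those with 20 to 40% and 67.6 CPM in those over 40%, bins that hold different lineages. Within B cell-like cells the same bins stood at 116, 131 and 92.3 CPM, so the first step went the other way. Within T cell-like cells they stood at 63.6, 27.5 and 15.5 CPM, the first from 11 cells with 4 UMIs. The 15 cells of cluster 24 at 12 months stood at 197 CPM, with a UMI in 8 of them.

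**Figure D5:**
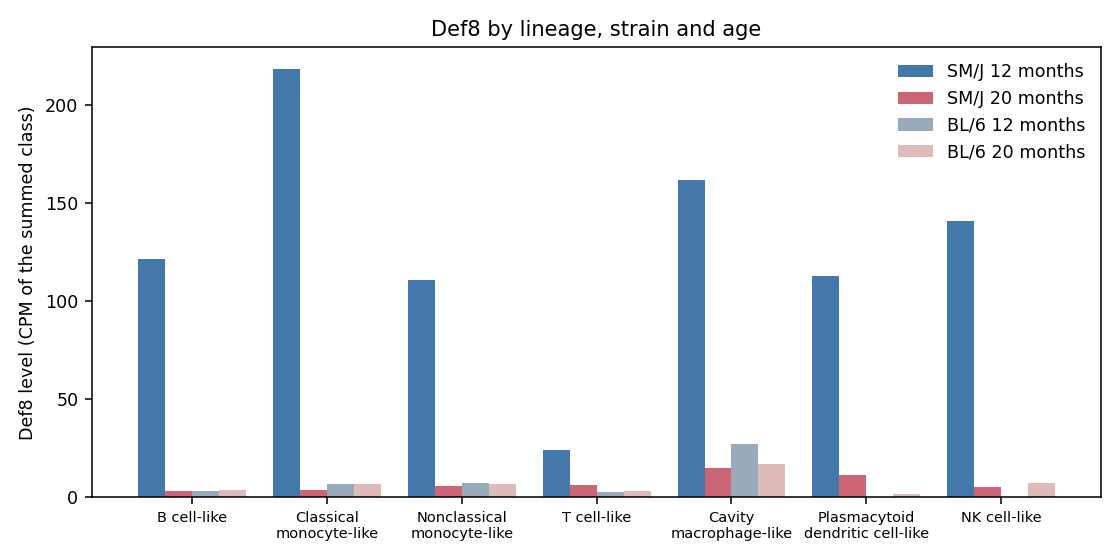
Level of Def8 (CPM of the summed class, vertical axis, bars from 0) in 7 lineages of SM/J and BL/6 blood at each age; each bar is the summed cells of 1 strain and age, with no error bar. SM/J at 12 months reaches 219 CPM in classical monocyte-like cells, and the other strain and age groups stay at or below 27.0 CPM in every class shown.

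Clusters held by both ages allow the same comparison with the mix of clusters fixed. Of the genes tested in each, T cell cluster 8 had 0.0762% higher and 1.29% lower, T cell cluster 10 had 0.492% and 0.246%, T cell cluster 11 had 0.438% and 0.11%, and NK cell cluster 5 had 0.648% and 0.432%. Nonclassical monocyte cluster 22 had 0.266% higher and 0.609% lower, and classical monocyte cluster 23 had 0.621% and 1.76%. In cluster 22 Fkbp5 was higher (2.29), and the B cell genes Cd79b (-1.57) and Ebf1 (-1.48) were lower. Ifi27l2a, an interferon-induced gene, was past 2-fold lower without overlap of aliquots in 5 of the 8 clusters, with log2 ratios from -4.06 in cluster 8 to -1.18 in cluster 23. In cluster 8 it stood at 337, 288 and 189 CPM in the 12-month aliquots and 18.1, 0 and 41.2 CPM at 20 months. All 20-month aliquots lay below all 12-month aliquots there, although only 5 UMIs were counted at 20 months. S100a4, a calcium-binding protein, was higher in clusters 5 (1.57), 13 (1.71) and 19 (1.16). S100a6 was higher in clusters 13 (2.07) and 19 (1.38) and lower in cluster 8 (-1.11). These genes were chosen after their values were seen.

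A search for genes that moved by at least 1.5-fold the same way in B cell-like, T cell-like, classical and nonclassical monocyte-like cells, made after seeing the data, covered 5297 genes with at least 30 UMIs in each lineage. It found 6 lower genes (Def8, Dpp4, Dlg2, Rsrp1, Rtp4 and Zdhhc14) and 2 higher genes (Cdkn2d and Socs3). Socs3, an inhibitor of cytokine signalling, had log2 ratios of 1.71, 0.59, 1.23 and 0.88 in that order of lineages, and 3.16 in cavity macrophage-like cells. Rsrp1, a splicing-related gene, had ratios between -0.69 and -0.59 in the 4 lineages.

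The other lists are read beside the 10.1% of all tested genes that were past 2-fold. Of 40 ribosomal protein genes 0 were past 2-fold (median 0.07), and of 29 genes of oxidative phosphorylation 0 (median 0.43). Of 20 genes of B cell receptor signalling 2 were lower, Cd72 (-1.86) and Pik3ap1 (-1.09), and of 11 class II presentation genes 1, H2-Oa (-1.29). Of 10 heat shock genes 1, Hspb1, was higher (2.80). Among 14 survival and death genes 2 were lower, Pmaip1 (-1.29) and Bcl2 (-1.02). The shares of these last 4 lists are close to that of all genes. Among 13 receptors of cell traffic 5 were lower and 0 higher, beside 5.42% of all genes lower.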

How the data were processed

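Gene counts of single cells from SM/J and BL/6 blood at 12 and 20 months were used. The values are the authors' deposited UMI counts, not normalized, from Cell Ranger 7.0.1 per the file headers. The submitters' processing notes name mm10 and Seurat 4.3.0. Cells were assigned to an age by the matrix that holds them and to an aliquot by their leading tag oligo, and 24 SM/J cells at 12 months led by another oligo stayed in no aliquot. The members and gene lists were chosen with earlier results of these data known.

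Scrublet in scanpy 1.11.5 marked doublets in each 10x sample at an expected rate of 0.06 (21 SM/J cells at each age). They stayed in the whole-blood sums and out of the leukocytes, as did platelet-like and erythroid cell-like cells. Kept cells of all 4 matrices were clustered by Leiden (2000 variable genes without mitochondrial genes, receptor segments, Xist and Y-linked genes, 30 components, 15 neighbours, resolution 1.0), giving 25 clusters. Clusters were named from lists of 10 markers for 13 classes. Cluster 17, with 64 and 24 SM/J cells and a median of 674 and 773.5 UMIs, stayed unnamed.

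UMIs were summed per age, class and aliquot and scaled to CPM of that sum. Ratios within a class used genes with 100 or more UMIs, a mean of 20 CPM or more and 0.25 times or more the level of the highest other class. With class shares held at their 12-month values, a list's ratio shows levels alone, and the reverse shows shares alone. Intervals are Newcombe for shares and conditional binomial for ratios, at 95%. The genes named are the 12 highest and 12 lowest in whole blood past 2-fold without overlap of aliquots, 5 receptor segments each way, 4 each way per class, up to 4 per list, class markers and cluster leaders; others were chosen after their values were seen. A few genes that this rule or the lists hold are not reported here. Coordinates and promoter windows are from RefSeq tables of GRCm38.p6, and 18 of 26 interferon genes matched a window. The ratio and interval code was tested on simulated data. The alternatives were TMM scaling (edgeR 4.0.16), other filters, thinning, other clusterings and leaving out aliquots or clusters. Software was Python 3.11.15, numpy 2.4.6, scipy 1.17.1, pandas 2.3.3 and R 4.3.3.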

Additional observations from a re-analysis of the deposited data

Results flagged for a closer look

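The results in this paragraph went one way in SM/J and the other way in BL/6 blood between 12 and 20 months. The shares did so in every aliquot, and the genes by a log2 ratio of at least 1 or at most -1 in the summed cells. For these genes the filter of a mean of 10 CPM was applied in SM/J only. The difference between the strains was not tested, and each strain was its own 10x run, so run and strain cannot be told apart. The B cell-like share of leukocytes changed by 6.54 points in SM/J and -29.2 points in BL/6, the nonclassical monocyte-like share by -10.6 and 13.4 points, and the T cell-like share by -6.50 and 4.48 points. The SM/J direction was that of BL/6 for T cell-like cells without the cells over 20% other-age tag UMIs (6.72 points) and for B cell-like cells when SM/J was clustered alone (-13.4 points). Among the genes carried by B cell-like cells, log2 ratios in SM/J and BL/6 whole blood were 4.94 and -1.08 for Gm35019, 4.50 and -2.20 for Zcwpw1, 4.10 and -1.48 for Igkv14-126, and 3.77 and -1.04 for Pclaf. They were 2.80 and -1.93 for the small heat shock protein gene Hspb1, 2.73 and -1.06 for Birc5, and 2.02 and -1.25 for Egr3. Among those carried by cavity macrophage-like cells they were 3.03 and -1.88 for Saa3 and 2.42 and -1.80 for Cfb. Il1b, carried by nonclassical monocyte-like cells, was lower in SM/J (-1.14) and higher in BL/6 (2.04). Several of these genes were under a mean of 10 CPM in BL/6 and would not have been tested there. Gm35019 stood at 1.55 and 0.208 CPM in BL/6 at 12 and 20 months, Igkv14-126 at 5.27 and 1.25 and Pclaf at 5.66 and 2.24. Zcwpw1 (42.8 and 8.54 CPM) and Saa3 (210 and 56.3 CPM) met that mean in BL/6. Over all 813 SM/J genes past 2-fold, 374 had the same direction in BL/6.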

How the results depend on the processing

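No paired analysis was possible because the tag oligos of the ages carry different numbers and none is known to be a replicate. Over all alternatives, the main counts, carriers and shares gave 107 values within their limits, 27 that moved and 2 that reversed; single genes and lists gave 1110, 728 and 16. With a mitochondrial limit of 5%, 283 genes were lower, 24.9% were carried by B cell-like cells (33.5% as reported) and the B cell-like share changed by 0.839 points. Genes higher and lower numbered 796 and 745 with a mean of at least 1 CPM and 144 and 181 with at least 50 CPM, fewer or more genes being tested. Thinning to 1000 UMIs, leaving out 68 and 24 cells, gave 167 lower genes. The mean of CPM per cell gave 140 lower, 37.8% carried by B cell-like cells and a share part of 51.7% (60.5% as reported). The split over clusters gave a share part of 84.0%. SM/J clustered alone gave 7.26% carried by B cell-like cells, a share part of 69.7% and a B cell-like change of -13.4 points. Without the clusters over 90% of 1 age, 56 genes were higher and 34 lower, and Nkg7 (0.55), Klrd1 (0.20), Ctsw (0.23) and Ccl5 (0.62) reversed. Without clusters 24 and 1, 163 were higher and 71 lower, and Marco (-0.0927), Nkg7 (0.15) and Ccl5 (0.23) reversed. With at most 20% other-age tag UMIs (the tag limits, leaving out clusters 24 and 1, and the interferon leave-one-out were added after seeing the data), 965 genes were lower, 23.4% were carried by B cell-like cells, and the share part was 82.8%. The shares then changed by 37.9 (B), 6.72 (T), -10.5 (classical) and -40.3 points (nonclassical). Trbc1 (0.54), Trac (0.57), Trbc2 (1.204), Iglc1 (0.12), Tox (0.0348), Nkg7 (1.21), Klrd1 (0.45), Ctsw (1.19) and Ccl5 (1.08) reversed. With at most 40%, T changed by -2.89 and nonclassical by -14.2 points. Beyond what each setting leaves out, the cause was not tested. Leaving out each aliquot gave 363 to 388 higher and 410 to 467 lower genes, 32.8% to 35.5% carried by B cell-like cells, share parts of 58.2% to 61.4%, changes of 5.85 to 7.24 (B), -7.52 to -5.40 (T), -1.76 to -0.538 (classical) and -11.0 to -10.1 points (nonclassical), and interferon medians of -2.18 (without 20-month aliquot 2) to -1.32 (without 20-month aliquot 3). TMM scaling gave 469 and 307 genes. Depth limits the classes with few cells: 454 genes could be tested in NK cell-like cells.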

Other observations

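The stromal genes Dcn and Igfbp5 had log2 ratios of 4.74 and 4.85 once the clusters held mostly by 1 age were left out. Over all cells Dcn stood at 0, 0 and 0.213 CPM in the 12-month aliquots and 11.1, 11.3 and 0 CPM at 20 months, and Igfbp5 at 0, 0 and 0.213 CPM and 2.11, 22.4 and 0.303 CPM. Aliquot 3 at 20 months was at or near the 12-month values for both genes, and neither gene met the whole-blood mean of 10 CPM. They were chosen after their values were seen.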
